A study of Pan troglodytes with 38 samples.

Results

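The smooth muscle and pericyte genes described here are 10 genes expressed by the mural cells of blood vessels, that is, the smooth muscle cells of arteries and veins and the pericytes of capillaries. They were chosen by name, as the genes of the chimpanzee gene count table whose Ensembl identifier carries a listed symbol, and all 10 were found among the 31373 genes of that table. Of these, 6 encode contractile proteins of smooth muscle: MYH11 (ENSPTRG00000007810), ACTA2 (ENSPTRG00000048353), TAGLN (ENSPTRG00000004320), CNN1 (ENSPTRG00000010511), SMTN (ENSPTRG00000014259) and LMOD1 (ENSPTRG00000001841). The other 4 encode receptors, a regulator and an adhesion protein of mural cells: RGS5 (ENSPTRG00000001609), PDGFRB (ENSPTRG00000044533), NOTCH3 (ENSPTRG00000010617) and MCAM (ENSPTRG00000004379). No gene lengths or human values were used here, so that the members' levels were compared between animals, not between members or species, and an abundance order within a marker list is by CPM not corrected for gene length.

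The samples were hearts of 38 chimpanzees from primate centers (Pan troglodytes), 22 females and 16 males, collected after death, and polyadenylated RNA of each was sequenced. RNA of 17 animals was extracted in an earlier year, in 4 batches, and RNA of the other 21 animals in 2018 in 1 batch. The sample table of the study marks all libraries of the earlier year, and none of 2018, as published libraries sequenced again, although its methods give other numbers. Extraction year and the origin of the library therefore cannot be told apart. The labels place all samples in 1 group without the heart chamber, age at death was not used here, and some of the animals are close relatives, which the p-values below do not take into account. The paper also states that some of its chimpanzees came from laboratories and had been challenged with HBV or HCV. Infection was not used here, and its part in the differences between years was not tested.

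Vascular smooth muscle contracts when myosin slides along actin, and the genes of this apparatus are switched on by serum response factor together with its heart and smooth muscle cofactor myocardin. Pericytes lie on capillaries inside the basement membrane that they share with endothelial cells, and are drawn there by PDGF-B from the endothelium, which binds PDGFRB. Contact with ligands of the Jagged and Delta families on neighbouring cells activates NOTCH3, a receptor with a main role in mural cells of arteries.

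Levels are given as CPM, the count of a gene per 1000000 counts of the animal's total on exons orthologous between human and chimpanzee. These totals were between 14408012 and 81603350 with a median of 41226040. The total of the gene counts, used below as another divisor, includes the mitochondrial counts and had a median of 63639042. It was the larger total in each animal, so that CPM under it are lower for each gene. The lowest count of any member in any animal was 133, for RGS5 in 4X0339, so that each member was detected in all 38 animals. RNA integrity numbers (RIN, lower in degraded RNA) were between 2.5 and 8.4 with a median of 5.9.

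Some libraries stood apart. Counts on the 13 mitochondrial genes made up a median of 30.4% of an animal's gene counts, and over 45% in 6 animals of 2018: 537 (60.1%), 558 (53.9%), 529 (52.7%), 4X0339 (51.7%), Little_R (48.3%) and 495 (45.3%). Non-mitochondrial gene counts were 1.57 times the total on orthologous exons in Little_R and 1.32 times in 537, with a median ratio of 1.15 over all animals, so that CPM on this scale are larger in these animals than they would be relative to those gene counts. The labelled tissue was checked with 10 markers of ventricular cardiomyocytes, which summed to 13731 CPM in Little_R and 145292 CPM in 522, with a median of 109185 CPM. MYH7, the ventricular myosin heavy chain, was lowest at 652 CPM in 549, where 5 atrial markers summed to 40836 CPM against a median of 439 CPM over all animals.

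The contractile genes differed widely between hearts. MYH11, the myosin heavy chain of smooth muscle, was at 22.1 CPM in the lowest animal, 72.0 CPM at the median and 444 CPM in the highest, a 20.1-fold range. The highest animal was 522, then 389 at 326 CPM, and the lowest was 4x0025. ACTA2, smooth muscle alpha actin, was between 44.5 and 1114 CPM with a median of 141 CPM. The animal 549 stood at the top of this range, followed by 522 at 625 CPM, both of the earlier year. TAGLN, which encodes the actin-binding protein transgelin, was between 87.3 and 954 CPM with a median of 205 CPM. It was highest in 537 and 495 (909 CPM), libraries with a high mitochondrial share, but 549 also reached 826 CPM.

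CNN1 encodes calponin, an actin-binding protein that slows the myosin ATPase, and had the widest range of the members as a ratio of highest to lowest (51.6), from 6.14 to 317 CPM with a median of 21.4 CPM. The highest value came from 4x0025, well above the next animal, 4X0333, at 123 CPM. LMOD1, leiomodin, which nucleates actin filaments, was between 13.2 and 149 CPM with a median of 43.4 CPM. It was highest in 549 and 495 (136 CPM) and lowest in 4x0025. SMTN, which encodes the actin-associated protein smoothelin, had the narrowest range as a ratio of highest to lowest (3.73), between 152 and 567 CPM with a median of 327 CPM (182 CPM under TMM library sizes and 190 CPM under the total of the gene counts). Here 4X0339 was highest, Little_R was next at 498 CPM, and 4x0025 was again lowest. The animal 4x0025 was thus lowest for MYH11, SMTN and LMOD1 and highest for CNN1. In bulk tissue, fewer cells of a type and less RNA per cell cannot be told apart.

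Among the mural genes, RGS5, a regulator of G protein signalling used as a pericyte marker, was at 5.53 CPM in the lowest animal, 51.7 CPM at the median and 107 CPM in the highest. Its level, like that of each member, depends on the divisor, with a median of 27.2 CPM under TMM library sizes and 25.9 CPM under the total of the gene counts. The lowest animal, 4X0339, had the lowest RIN and a mitochondrial share of 51.7%, and the next, 724, was at 19.3 CPM. PDGFRB, the receptor for PDGF-B, was between 87.9 and 740 CPM with a median of 173 CPM. Its highest animals were 537, 495 (539 CPM) and 558 (534 CPM), all libraries with over 45% mitochondrial counts. NOTCH3 was between 42.1 and 352 CPM with a median of 121 CPM. It was highest in 537 and 495 (335 CPM), the same pair that led TAGLN. MCAM, the adhesion molecule CD146, was between 67.1 and 640 CPM with a median of 158 CPM. The highest animal was 529, then 549 at 424 CPM, and the lowest was 88A020, which was also lowest for TAGLN.

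Added up, the 6 contractile members came to between 445 CPM in 88A020 and 2759 CPM in 549, with a median of 848 CPM. The 4 mural members came to between 257 CPM, again in 88A020, and 1480 CPM in 537, with a median of 518 CPM. The library with the highest contractile sum was the one with the highest sum of atrial markers, and the library with the highest mural sum was also highest for fibroblast markers (13344 CPM, median 2024 CPM) and endothelial markers (5781 CPM, median 1714 CPM). The part of these other cell types in the members' levels was not tested. Without the 6 libraries over 45% mitochondrial counts, the highest value was 417 CPM for PDGFRB (676), and 222 CPM for NOTCH3, 826 CPM for TAGLN and 424 CPM for MCAM, all in 549. In these 32 animals SMTN reached 479 CPM, RGS5 began at 19.3 CPM, and the mural sum reached 938 CPM in 549, while the highest values of MYH11, ACTA2, CNN1 and LMOD1 came from other libraries.

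**Figure D1:**
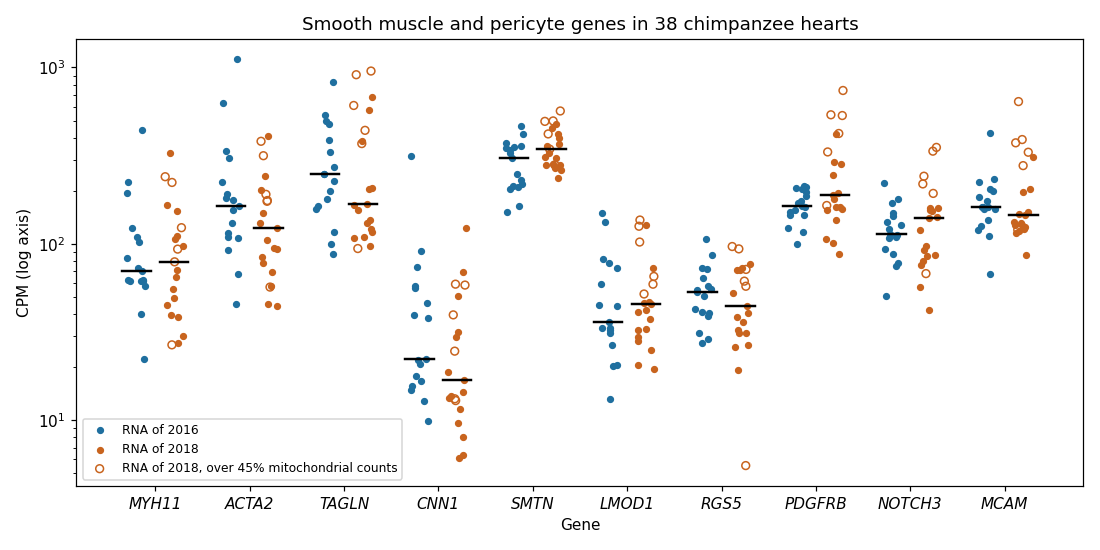
CPM (log axis) of each of the 10 genes in 38 chimpanzee hearts, with 1 point per animal, blue for RNA of the earlier year and orange for RNA of 2018, open points for the 6 libraries over 45% mitochondrial counts and a black line at each median. Both years overlap for each gene, and the highest PDGFRB points, up to 740 CPM, are open.

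Extraction year was compared as a technical batch, to see whether the members' levels moved with it. For PDGFRB, animals of the earlier year lay between 100 and 213 CPM with a median of 164 CPM, and those of 2018 between 87.9 and 740 CPM with a median of 189 CPM. In 9 of the 21 animals of 2018 PDGFRB exceeded the highest animal of the earlier year, while the lowest animals of both years were alike. The difference between years on the log2 scale was 0.55 ± 0.18 (SE, 17 against 21 animals) and passed the test (edgeR quasi-likelihood, Benjamini-Hochberg adjusted p = 0.0327). PDGFRB was the 1 of 10 members that rose with year, beside 11.1% of the 15392 genes tested (1713 genes), a share close to that of the members. No member fell (0 of 10), beside 4.68% of genes tested (720 genes). At an unadjusted p under 0.05 were 2 of 10 members, beside 4703 of the 15392 genes tested. The members' median difference was -0.09 on the log2 scale and that of all genes was -0.01.

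The call for PDGFRB was lost when any of 495, 537, 558 or 88A020 was left out, with edgeR adjusted p = 0.0526, 0.0536, 0.0535 and 0.0506 in turn. The difference moved little there, to 0.51, 0.50, 0.52 and 0.53 on the log2 scale. Without 537 and Little_R it was 0.44 and the edgeR adjusted p was 0.0860. Without the 6 libraries over 45% mitochondrial counts, a setting chosen after seeing the data, the difference was 0.20 on the log2 scale and the edgeR adjusted p was 0.442. In the 21 animals of the Yerkes center alone the difference was 0.68 on the log2 scale and the edgeR adjusted p was 0.212. Over all settings the adjusted p of PDGFRB lay between 0.0122 and 0.442. Scaling by the total of the gene counts moved the median of all genes to -0.20 and turned the split of calls from 1713 higher and 720 lower to 803 higher and 1459 lower. Under that scaling PDGFRB had a difference of 0.31 (edgeR adjusted p = 0.212). Whether the year acts on PDGFRB apart from the libraries with a high mitochondrial share was not tested.

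For ACTA2, animals of the earlier year lay between 45.9 and 1114 CPM with a median of 163 CPM, and those of 2018 between 44.5 and 408 CPM with a median of 123 CPM. The years overlapped from the lowest animals up to 408 CPM, and 549 and 522 of the earlier year lay above all animals of 2018. The log2 difference was -0.80 ± 0.30 (SE) with an edgeR adjusted p of 0.0672, which missed the threshold. It passed with DESeq2 (adjusted p = 0.0455), with the total of the gene counts (edgeR, 0.0324), without 389 (0.0355) and without 570 (0.0458), within a range of 0.0324 to 0.224 over all settings. The difference was -0.52 without 522 as well as without 549, and -1.33 in Yerkes animals (edgeR adjusted p = 0.117).

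CNN1 was between 9.84 and 317 CPM with a median of 22.2 CPM in the earlier year, and between 6.14 and 123 CPM with a median of 16.8 CPM in 2018. Although 4 animals of 2018 lay below the lowest of the earlier year, the log2 difference of -0.78 ± 0.41 (SE) did not pass (edgeR adjusted p = 0.196). It shrank to -0.24 without 4x0025 and to -0.30 in Yerkes animals. SMTN was between 152 and 464 CPM with a median of 305 CPM in the earlier year, and between 236 and 567 CPM with a median of 344 CPM in 2018. In 7 of the 17 animals of the earlier year it was below the lowest animal of 2018, but the log2 difference of 0.28 ± 0.14 (SE) did not pass either (edgeR adjusted p = 0.181). It was 0.10 under the total of the gene counts and 0.15 in Yerkes animals.

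The other 6 members had differences between -0.27 ± 0.33 (SE) for MYH11 and 0.16 ± 0.18 (SE) for MCAM, and none of them passed with edgeR, where the smallest adjusted p among them was 0.581, for RGS5. The sign was decided by 1 animal for some of them. MYH11 moved from -0.27 to 0.16 without 522. Likewise LMOD1 moved from -0.09 to 0.12 without 522, and TAGLN from -0.09 to 0.06 without 549. The difference of NOTCH3, 0.11 ± 0.19 (SE), turned to -0.08 under the total of the gene counts and to -0.13 without the libraries over 45% mitochondrial counts. That of MCAM turned to -0.12 and -0.16 under the same settings. In Yerkes animals MYH11 was at -0.99 and LMOD1 at -0.53, without the libraries over 45% mitochondrial counts TAGLN was at -0.42, and under the total of the gene counts RGS5 was at -0.36, none of which passed with edgeR.

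RIN was compared because RNA quality differs between post-mortem hearts. With extraction year and sex in the model, 0 of the 15392 genes passed with edgeR, which is 0% of genes and 0 of 10 members, while 2171 genes were at an unadjusted p under 0.05 and DESeq2 called 87 genes higher and 97 lower. Over all animals RGS5 had the steepest slope of the members, 0.14 ± 0.07 (SE) on the log2 scale per unit of RIN, with p = 0.0476 before adjustment and an edgeR adjusted p of 0.347. Its slope was 0.15 in animals of 2018, where those of CNN1 (0.30) and TAGLN (0.17) were steeper. It was 0.06 in animals of the earlier year, where CNN1 was at -0.60. Without the libraries over 45% mitochondrial counts it was 0.08, below that of MYH11 (0.14). In the fit of all animals SMTN was the 1 member with a slope below 0, at -0.08 ± 0.05 (SE, edgeR adjusted p = 0.429). The other 8 slopes lay above 0, none with an unadjusted p under 0.05, and all of them except that of MYH11 took values below 0 under some other setting. No member passed with DESeq2 or under any other setting.

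The members were then compared with each other across animals, over their 45 pairs. Pearson correlations of log2(CPM + 0.5) were called for 30 pairs at a Benjamini-Hochberg adjusted p under 0.05 (two-sided permutation test, 100000 resamples), and 29 of these were positive. The median r over the 45 pairs was 0.416, whereas over all 50105055 pairs of the 10011 named genes whose median reached 6 CPM it was 0.0694, with 56.8% of them above 0. The smallest r called in size among the members was 0.362, and 22.1% of all gene pairs had an r at least that high and 13.6% one as low on the negative side. All 6 pairs of mural genes were called, with a median r of 0.604. Contractile genes were called with each other in 9 of 15 pairs (median r 0.465), and with mural genes in 15 of 24 pairs (median r 0.372). Within the earlier year 7 of the 45 pairs were called, and NOTCH3 with MCAM was the only mural pair among them. Without the libraries over 45% mitochondrial counts 19 pairs were called. All genes of an animal share its total and its mix of cells, and permutation treats related animals as independent.

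Within the contractile genes, ACTA2 and TAGLN had the highest correlation of any pair, r = 0.785 (permutation p = 1e-05, the smallest the resamples can give, adjusted p = 5.62e-05) and rho = 0.798 (permutation p = 1e-05). It was 0.772 without 522 and 549, 0.723 within the earlier year and 0.883 within 2018. Hearts high in ACTA2 were thus high in TAGLN in either year. MYH11 and ACTA2, the motor and its filament, had r = 0.765 (permutation p = 1e-05, adjusted 5.62e-05) and rho = 0.749 (permutation p = 1e-05). Without 389 and 522 the value was 0.707, and it was 0.734 within the earlier year and 0.827 within 2018. MYH11 and LMOD1 had r = 0.755 (permutation p = 1e-05, adjusted 5.62e-05) and rho = 0.703 (permutation p = 2e-05), and 0.697 without 389 and 522, 0.883 within the earlier year and 0.662 within 2018. These 3 genes and TAGLN formed a set in which each pair was called over all animals. Within the earlier year MYH11 with TAGLN (r = 0.419, adjusted permutation p = 0.223) and TAGLN with LMOD1 (r = 0.516, adjusted permutation p = 0.101) were not called.

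CNN1 was called with TAGLN and, over all animals, not with MYH11, a difference that was not tested. With TAGLN its r was 0.643 (permutation p = 2e-05, adjusted 1e-04) and rho 0.638 (permutation p = 3e-05), with 0.645 without 495 and 537, 0.711 within the earlier year and 0.628 within 2018. With MYH11 its r was 0.249 (permutation p = 0.134, adjusted 0.177) and rho 0.305 (permutation p = 0.0631), with 0.146 without 389 and 522, -0.0899 within the earlier year and 0.521 within 2018, where the pair was called (permutation p = 0.0157, adjusted 0.0271). CNN1 and SMTN were the only called pair with a negative r, -0.436 (permutation p = 0.00623, adjusted 0.0122), with rho = -0.392 (permutation p = 0.0151). The pair was not called under the total of the gene counts (r = -0.332). This relation fell short within either year, at -0.437 (permutation p = 0.0783) in the earlier year and -0.325 (permutation p = 0.152) in 2018, and r was -0.288 without 4x0025 and 4X0333, the animals highest in CNN1.

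Among mural genes, PDGFRB and NOTCH3, the receptors for signals from endothelium, had r = 0.766 (permutation p = 1e-05, adjusted 5.62e-05) and rho = 0.622 (permutation p = 5e-05). The value was 0.667 without 495 and 537, 0.482 within the earlier year, where the pair was not called (permutation p = 0.0493, adjusted 0.131), and 0.861 within 2018 (permutation p = 1e-05, adjusted 1.5e-04). NOTCH3 and MCAM had r = 0.673 (permutation p = 1e-05, adjusted 5.62e-05) and rho = 0.648 (permutation p = 4e-05), with 0.727 without 4X0550 and 537, 0.673 within the earlier year and 0.671 within 2018. RGS5 was closer to NOTCH3 than to PDGFRB, in values whose difference was not tested. With NOTCH3 its r was 0.598 (permutation p = 4e-05, adjusted 1.64e-04) and rho 0.634 (permutation p = 1e-05), with 0.583 without 4X0339 and 724, 0.570 within the earlier year, where it was not called (adjusted permutation p = 0.0775), and 0.638 within 2018. With PDGFRB its r was 0.384 (permutation p = 0.0192, adjusted 0.0327) and rho 0.492 (permutation p = 0.00191), with 0.414 without 4X0339 and 724, 0.327 within the earlier year and 0.50 within 2018. This pair was no longer called with TMM library sizes (r = 0.240), with the total of the gene counts (0.332), without 537 and Little_R (0.357) or without the libraries over 45% mitochondrial counts (0.287).

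Across the 2 groups of members, TAGLN and MCAM had the highest value, r = 0.696 (permutation p = 1e-05, adjusted 5.62e-05) and rho = 0.676 (permutation p = 2e-05), with 0.663 without 495 and 537, 0.575 within the earlier year, where it was not called (adjusted permutation p = 0.0714), and 0.764 within 2018. MYH11 and PDGFRB were at r = 0.210 (permutation p = 0.208, adjusted 0.252) and rho = 0.0787 (permutation p = 0.639), with 0.326 without 389 and 522, -0.0387 within the earlier year and 0.336 within 2018. The heavy chain of smooth muscle and the PDGF-B receptor were thus among the pairs not called. In the normalized matrix deposited by the authors, which covers 37 animals and all 10 members, 11 of 45 pairs were called. There r was 0.66 for ACTA2 and TAGLN but 0.10 for PDGFRB and NOTCH3 and -0.051 for RGS5 and PDGFRB. It was 0.14 for NOTCH3 and MCAM, 0.076 for RGS5 and NOTCH3 and 0.26 for TAGLN and MCAM, none of these 5 pairs was called there, and the cause was not tested.

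**Figure D2:**
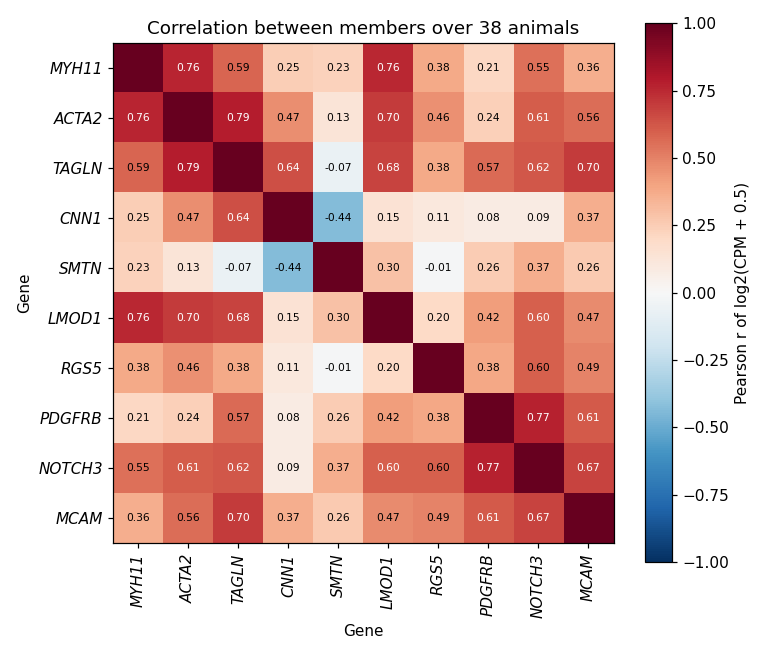
Pearson r of log2(CPM + 0.5) for each pair of the 10 genes over 38 animals, with genes on both axes and red for positive and blue for negative r. ACTA2 with TAGLN (0.785) is the deepest red off the diagonal, and CNN1 with SMTN (-0.436) the deepest blue.

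The mitochondrial share of each library was compared with the members as a sign of library composition, a comparison chosen after seeing the data. Of the 10 relations, 5 were called after Benjamini-Hochberg adjustment, all positive and with r of at least 0.468. Of the 10011 named genes compared, 14.9% had an r that high and 17.5% one as far below 0. PDGFRB had r = 0.604 (permutation p = 1.4e-04, adjusted 0.00115), but rho = 0.254 (permutation p = 0.124), r = 0.401 without the 2 animals of most extreme share, -0.359 within the earlier year and 0.671 within 2018. LMOD1 had r = 0.562 (permutation p = 2.3e-04, adjusted 0.00115) and rho = 0.595 (permutation p = 1.1e-04), and 0.524, 0.459 and 0.717 in the same order. Thus LMOD1 had the same sign in both years, whereas PDGFRB did not.

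The other called relations were those of NOTCH3 (r = 0.498, adjusted permutation p = 0.0046, rho = 0.429), SMTN (r = 0.484, adjusted permutation p = 0.00572, rho = 0.443) and MCAM (r = 0.468, adjusted permutation p = 0.00642, rho = 0.190). Within the earlier year they were 0.0400, 0.392 and -0.344, and within 2018 they were 0.640, 0.423 and 0.728. None of the 5 was called without the libraries over 45% mitochondrial counts, under scaling by the total of the gene counts, or within the earlier year. Without those libraries r was 0.456 for LMOD1, 0.406 for SMTN, 0.174 for NOTCH3, 0.0450 for PDGFRB and -0.0670 for MCAM. Under the total of the gene counts it was 0.260, -0.192, 0.0747, 0.226 and 0.0260 in the same order. That total includes the mitochondrial counts, so that a higher mitochondrial share by itself lowers each member's CPM under it. The setting therefore cannot decide whether these relations hold. SMTN was also not called with TMM library sizes (r = 0.346) or within 2018, and NOTCH3 (0.363) and MCAM (0.359) were not called without 537 and Little_R. The members TAGLN, MYH11, ACTA2, CNN1 and RGS5 were not called, with r between -0.126 for CNN1 and 0.333 for TAGLN.

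The total on orthologous exons, which is the divisor of each CPM, also moved with the members, and 5 of these 10 relations were called, all negative, in a comparison also chosen after seeing the data. PDGFRB had r = -0.723 with the logarithm of the total (permutation p = 1e-05, adjusted 1e-04) and rho = -0.611 (permutation p = 8e-05), with -0.646 without the 2 animals of most extreme total, -0.333 within the earlier year and -0.761 within 2018. The others were MCAM (r = -0.516, adjusted permutation p = 0.00465), TAGLN (r = -0.475, 0.00785), NOTCH3 (r = -0.466, 0.00785) and LMOD1 (r = -0.389, 0.0309). In the same order rho was -0.299, -0.325, -0.355 and -0.305, with unadjusted permutation p = 0.0700, 0.0476, 0.0296 and 0.0629. Without the 2 animals of most extreme total r was -0.379, -0.412, -0.386 and -0.335. Within the earlier year these 4 had r above 0, between 0.0860 and 0.375, and within 2018 r between -0.570 and -0.689. Over the 10011 genes 32.8% had an r of -0.389 or lower and 21.2% one of 0.389 or higher. Whether these relations come from the divisor itself was not tested.

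**Figure D3:**
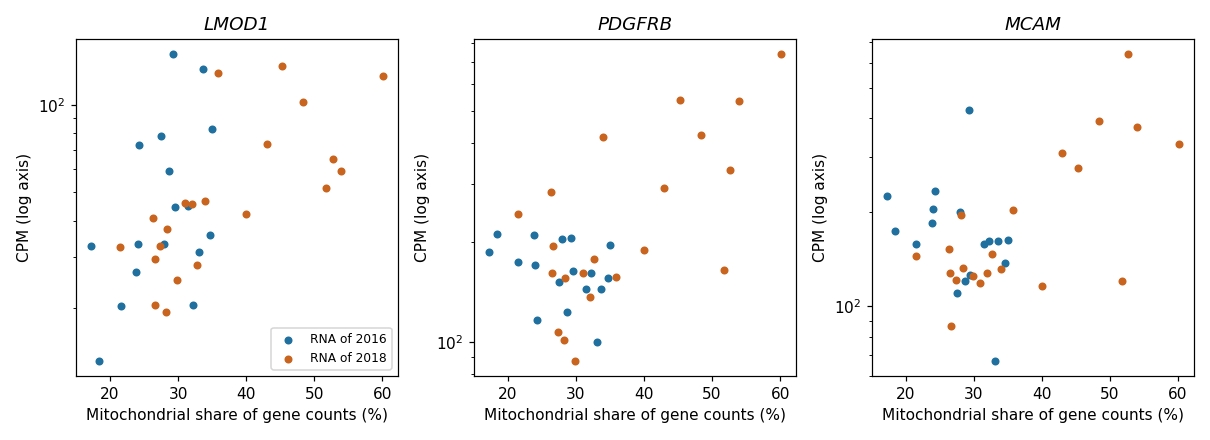
CPM (log axis) of LMOD1, PDGFRB and MCAM against the mitochondrial share of gene counts in percent, with 1 point per animal, blue for the earlier year and orange for 2018. The share is above 45% only in animals of 2018, and there PDGFRB reaches 740 CPM and MCAM 640 CPM.

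Other genes of the same pathways were read from the same fits. Of 22 further contractile and cytoskeletal genes of smooth muscle tested, 1 rose and 1 fell with year, beside 11.1% and 4.68% of all genes. PPP1R14A, an inhibitor of myosin phosphatase also known as CPI-17, rose by 0.61 ± 0.22 (SE) on the log2 scale (edgeR adjusted p = 0.0492), a call lost in 21 of the 38 fits that each left out 1 animal. It was also lost under the total of the gene counts (0.47), without 537 and Little_R (0.59), with RIN added (0.59), in Yerkes animals (0.44) and without the libraries over 45% mitochondrial counts (0.49). PPP1R12A, the targeting subunit of that phosphatase, had a difference of -0.38 ± 0.12 (SE, edgeR adjusted p = 0.0215) and lost its call without 4X0339, 537, 549 or 558, where the adjusted p reached 0.0610, and with the total on orthologous exons (0.0769). Summed, these genes lay between 31175 and 51157 CPM (median 41703 CPM) in the earlier year and between 13268 and 61171 CPM (median 39182 CPM) in 2018. Desmin, DES, which cardiomyocytes also express, was the most abundant at a median of 20292 CPM, and no gene of the list was at 0 in any animal.

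Of 6 regulators of contractile genes, 1 rose and none fell, beside the same shares of all genes. It was KLF4, a zinc finger factor that can repress smooth muscle genes, at 1.03 ± 0.30 (SE, edgeR adjusted p = 0.0153). The call held in each of the 38 fits that left out 1 animal, but not without the libraries over 45% mitochondrial counts, at 0.55 (edgeR adjusted p = 0.126), or in Yerkes animals, at 1.11 (0.191). MYOCD, myocardin, and SRF, serum response factor, did not pass, with log2 differences of -0.15 ± 0.18 and -0.09 ± 0.11 (SE). The sum of the 6 genes was between 421 and 597 CPM (median 482 CPM) in the earlier year and between 372 and 867 CPM (median 479 CPM) in 2018, led by SRF. Of 17 further pericyte genes none was called in either direction with edgeR, and their median difference was 0.07 on the log2 scale.

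Among PDGF ligands and receptors other than PDGFRB, 0 of 4 rose and 1 fell, beside 11.1% and 4.68% of all genes. PDGFB, the endothelial ligand of PDGFRB, had a difference of 0.0044 ± 0.16 (SE, edgeR adjusted p = 0.989). PDGFC, a ligand that acts mainly on PDGFRA, fell by 0.56 ± 0.19 (SE, edgeR adjusted p = 0.0388), a call lost in 17 of the 38 fits that left out 1 animal, without a filter, with RIN added, without 537 and Little_R (-0.49), in Yerkes animals (-0.64) and without the libraries over 45% mitochondrial counts (-0.32). The sum was between 63.6 and 190 CPM (median 107 CPM) in the earlier year and between 51.5 and 462 CPM (median 87.4 CPM) in 2018, and the most abundant was PDGFRA, a fibroblast receptor, in the earlier year (median 49.4 CPM) and PDGFB in 2018 (46.7 CPM).

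In the Notch pathway 4 of 14 genes rose and none fell, beside 11.1% and 4.68% of all genes. NOTCH4, an endothelial receptor, had a log2 difference of 1.33 ± 0.27 (SE, edgeR adjusted p = 6.15e-04). JAG2, a Jagged ligand, was at 0.65 ± 0.15 (SE, edgeR adjusted p = 0.00197). The receptor NOTCH1 and the ligand DLL1 were both at 1.09 ± 0.32 (SE), each with an edgeR adjusted p of 0.0157. The ligands JAG1 (0.30 ± 0.19, SE) and DLL4 (0.22 ± 0.25, SE) and HEYL, a target of Notch in smooth muscle (0.17 ± 0.23, SE), did not pass.

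Without the libraries over 45% mitochondrial counts NOTCH4 passed at 0.99 (edgeR adjusted p = 0.0149), and JAG2 at 0.44 (0.0502), DLL1 at 0.38 (0.371) and NOTCH1 at 0.22 (0.419) did not. Under the total of the gene counts NOTCH4 passed at 1.05 (0.00493), and JAG2 at 0.44 (0.0549), DLL1 at 0.75 (0.0660) and NOTCH1 at 0.69 (0.0705) did not. NOTCH1 also missed the threshold without 537 and Little_R, at 0.56 (0.0614). In the 21 Yerkes animals (9 and 12 of the respective years) none of the 4 passed with edgeR, with log2 differences of 1.07 for NOTCH4 (adjusted p = 0.113), 0.92 for DLL1, 0.59 for NOTCH1 and 0.58 for JAG2. The summed level of the Notch genes was between 367 and 810 CPM (median 549 CPM) in the earlier year and between 392 and 1988 CPM (median 557 CPM) in 2018, where Little_R was highest. HEY2, a transcriptional repressor, was the most abundant by its median of 81.0 CPM, and no gene of the list was at 0. The part of library composition in these calls was not tested.

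Markers of other cell types were read from the same fits, and their part in the members' values was not tested. Of 11 endothelial genes 1 rose, beside 11.1% of all genes. It was EGFL7, a secreted endothelial protein, at 1.52 ± 0.32 (SE, edgeR adjusted p = 0.0011), with 0.81 without the libraries over 45% mitochondrial counts (0.0371) and 1.29 in Yerkes animals, where it did not pass (0.136). The sum of the endothelial genes was between 1254 and 3086 CPM (median 1763 CPM) in the earlier year and between 1082 and 5781 CPM (median 1702 CPM) in 2018, led by VWF at a median of 711 CPM. None of 10 fibroblast genes passed with edgeR, and their median difference was 0.23 on the log2 scale. Of 4 activated fibroblast genes 2 fell, beside 4.68% of all genes, CTHRC1 at -1.15 (edgeR adjusted p = 0.0457) and TNC at -1.99 (0.0464), calls lost in 27 and 22 of the 38 fits that left out 1 animal. With DESeq2 TNC was at -0.43 (adjusted p = 0.559) and CTHRC1 passed. Neither passed with the total on orthologous exons (CTHRC1 at -1.05, TNC at -1.94) or with a 6 CPM filter (-1.09 and -1.95). In Yerkes animals neither passed, with CTHRC1 at -1.0 and TNC at -0.19. Without the libraries over 45% mitochondrial counts both passed, CTHRC1 at -1.69 (edgeR adjusted p = 0.00775) and TNC at -2.79 (0.021). The 4 activated fibroblast genes summed to between 35.9 and 582 CPM (median 168 CPM) in the earlier year and between 17.6 and 393 CPM (median 116 CPM) in 2018, led by POSTN. No endothelial or fibroblast marker was at 0 in any animal.

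Of 10 ventricular cardiomyocyte genes none passed with edgeR, and of 3 Schwann cell genes none passed. Of 5 atrial genes 3 fell, beside 4.68% of all genes, SLN at -3.37, MYL7 at -2.02 and MYL4 at -2.02 on the log2 scale (edgeR adjusted p = 0.00197, 0.0177 and 0.0368). With DESeq2 SLN passed at -1.51, while MYL7 was at -0.68 (adjusted p = 0.376) and MYL4 at -0.20 (0.689). Without 549, SLN passed and MYL7 (edgeR adjusted p = 0.394) did not. The call of MYL4 was lost without 549 or any of 8 other animals, where its edgeR adjusted p reached 0.903. MYL4 had a median of 47.9 CPM in the earlier year (highest 6878 CPM) and 38.1 CPM in 2018 (highest 183 CPM). It also missed the threshold without 537 and Little_R, at -1.85. Both MYL7 and MYL4 missed it in Yerkes animals and without the libraries over 45% mitochondrial counts, at differences of -1.58 or further from 0. The atrial genes summed to between 55.0 and 40836 CPM (median 768 CPM) in the earlier year and between 42.8 and 16412 CPM (median 230 CPM) in 2018, led by NPPA in the earlier year and by MYL7 in 2018, and none was at 0. The highest of the earlier year was 549, the animal with the most ACTA2 and LMOD1.

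Macrophage genes fell in 4 of 6 cases, MRC1 at -1.46, MARCO at -3.00, CD163 at -1.58 and CSF1R at -1.39 (edgeR adjusted p = 0.00133, 0.00331, 0.00352 and 0.0039), beside 4.68% of all genes. In Yerkes animals these differences were -1.60, -2.0, -1.38 and -0.94, and none passed (edgeR adjusted p = 0.0799, 0.298, 0.226 and 0.119). They summed to between 42.1 and 433 CPM (median 99.3 CPM) in the earlier year and between 21.4 and 233 CPM (median 52.7 CPM) in 2018, led by CD68, and MARCO was at 0 in 2 animals. Of 4 adipocyte genes tested 3 rose, beside 11.1% of all genes, FABP4 at 0.80, CIDEC at 2.64 and PLIN1 at 2.86 (edgeR adjusted p = 0.0232, 0.0340 and 0.0370), where DESeq2 called FABP4 and gave 0.45 for CIDEC (adjusted p = 0.349) and 0.61 for PLIN1 (0.334). The adipocyte list summed to between 314 and 1227 CPM (median 481 CPM) in the earlier year and between 299 and 1720 CPM (median 748 CPM) in 2018, led by PLIN4, a lipid droplet protein, in the earlier year and by FABP4, which endothelial cells also express, in 2018. Its defining markers ADIPOQ and LEP did not pass the filter on low counts, had medians of 0.115 and 0.00935 CPM, and were at 0 in some animals of either year. FABP4 missed the threshold with the total of the gene counts, at 0.65 (edgeR adjusted p = 0.0572), and at differences as large as over all animals in Yerkes animals, 0.82 (0.0804), and without the libraries over 45% mitochondrial counts, 0.83 (0.0553). The call of CIDEC was lost without 389 or 4X0267, where its edgeR adjusted p reached 0.790. That of PLIN1 was lost without any of 7 animals, where its edgeR adjusted p reached 0.700, or with sex left out. Medians in the earlier year and in 2018 were 0.438 and 0.539 CPM for CIDEC, and 0.533 and 0.644 CPM for PLIN1. With RIN added neither passed (2.16 and 2.40), and in Yerkes animals they fell to 0.88 and 0.69 (edgeR adjusted p = 0.711 and 0.814).

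Of 4 mesothelial genes tested 2 rose, beside 11.1% of all genes, KRT19 at 1.21 and MSLN at 2.44 (edgeR adjusted p = 0.0415 and 0.0473), calls lost in 12 and 18 of the 38 fits that left out 1 animal, and neither passed under the total of the gene counts, without 537 and Little_R, in Yerkes animals or without the libraries over 45% mitochondrial counts. With DESeq2 KRT19 passed and MSLN, at 1.32, did not (adjusted p = 0.128), nor did it with RIN added to the edgeR fit. They summed to between 5.76 and 21.3 CPM (median 8.73 CPM) in the earlier year and between 6.47 and 167 CPM (median 11.4 CPM) in 2018, highest in Little_R and led by KRT19 in the earlier year and by WT1 in 2018, and MSLN and CALB2 were at 0 in some animals. With RIN, no gene of any list passed with edgeR.

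Variability between animals was measured by dispersion, the residual of the natural logarithm of a gene's negative binomial overdispersion from its trend on mean expression, so that 0 is typical of genes at that level. Over 13121 genes the median was -0.13, the middle 50% of genes lay between -0.71 and 0.56, and 44.4% were above 0. Of the 10 members 9 were above 0. The contractile genes led, with CNN1 at 2.03 ± 0.43 (jackknife SE over 38 animals), ranked 281 from the highest, ACTA2 at 1.73 ± 0.32 (rank 534) and MYH11 at 1.64 ± 0.23 (rank 615). TAGLN followed at 1.54 ± 0.14 (rank 732) and LMOD1 at 1.32 ± 0.18 (rank 1096).

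The mural genes lay close together below these, with PDGFRB at 0.96 ± 0.28 (rank 1909), MCAM at 0.86 ± 0.30 (rank 2219), RGS5 at 0.85 ± 0.34 (rank 2246) and NOTCH3 at 0.84 ± 0.24 (rank 2282). They differed from each other by less than their standard errors. With library sizes from the total of the gene counts PDGFRB, NOTCH3 and MCAM moved close to 0, to -0.0029, 0.08 and 0.11, whereas RGS5 stayed at 0.62, TAGLN was at 0.95 and MYH11 at 1.24. Under TMM library sizes PDGFRB was at 0.51, NOTCH3 at 0.55 and TAGLN at 1.26. PDGFRB was at 0.58 without the libraries over 45% mitochondrial counts. SMTN, a contractile gene, was at -0.13 ± 0.21 (rank 6540), close to the median gene. It was at -0.68 under the total of the gene counts and -0.72 within 2018. Without 537 and Little_R it was at 0.15, and without the libraries over 45% mitochondrial counts at 0.24. Single hearts carried part of these values. CNN1 was at 1.61 without 4x0025, ACTA2 at 1.43 without 549, and RGS5 at 0.54 without 4X0339. Within the earlier year PDGFRB was at -0.20 and SMTN at 0.60, so that their order turned around. The other 5 contractile genes were higher there, from 1.86 for TAGLN to 2.73 for CNN1, and also higher without the libraries over 45% mitochondrial counts, from 1.68 for LMOD1 to 2.56 for CNN1. Within 2018 ACTA2 and LMOD1 were lower, at 1.28 and 1.10. Under the total of the gene counts they were at 1.325 and 0.78.

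The median dispersion was 1.59 over the contractile and 0.86 over the mural members. Over other lists it was 0.54 for 21 further contractile genes, 0.73 for 16 further pericyte genes, 0.99 for 14 Notch genes and 0.83 for 11 endothelial genes. Fibroblast genes had a median of 1.95, atrial genes 2.96 and ventricular genes 0.50. No test was made between lists.

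**Figure D4:**
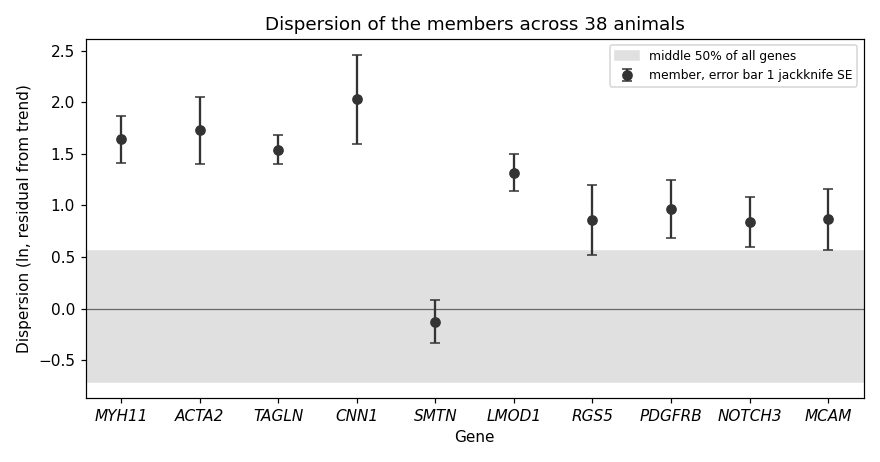
Dispersion (natural log scale, residual from the trend) of each of the 10 genes over 38 animals, with error bars of 1 jackknife SE and a grey band for the middle 50% of all genes. CNN1 is highest at 2.03, and SMTN at -0.13 is the only gene inside the band.

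The genes most like MYH11 and RGS5 were sought among 10011 named genes whose median reached 6 CPM, by Pearson r of log2(CPM + 0.5) centred within extraction year over 38 animals. Outside the members, MYH11 was closest to ALDH1A1, a retinal dehydrogenase, at r = 0.725 (0.482 within the earlier year, 0.880 within 2018), then to CCDC3 at 0.719 and to MYLK at 0.710. MYLK encodes the kinase that activates smooth muscle myosin and was on the contractile list. EFHD1 (r = 0.688) came next, while the members ACTA2 and LMOD1 stood at 0.778 and 0.761 on this scale.

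RGS5 was closest to DOCK1, an exchange factor for the GTPase RAC, at r = 0.758 (0.544 within the earlier year, 0.809 within 2018, 0.623 without the 2 animals farthest from the median of RGS5). RERG, a small GTPase, was at 0.744 and RECK, a membrane inhibitor of matrix metalloproteinases, at 0.741. LHFPL6 (r = 0.736) and ADAMTSL3 (r = 0.717), a secreted matrix protein, followed. The closest member to RGS5 was NOTCH3 at 0.622, and no gene of the pericyte list was among these 5. These genes were picked as the highest of 10011, so their r are descriptions without a test.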

How the data were processed

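Each raw count was used as deposited: gene counts that the authors obtained from STAR 2.6.1b for 31373 chimpanzee genes (Pan_tro_3.0), of which 18040 have a symbol, and exon counts by featureCounts 1.6.3, used as totals only. A normalized score per gene and animal (13545 genes, 37 animals), which the authors standardized per gene and quantile normalized, served as an alternative. In all, 52 columns of human samples and another chimpanzee were not used. Extraction year (2016, called the earlier year, or 2018), RIN and sex came from the sample table of the study.

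The year fit had sex as covariate, and the RIN fit had year and sex. Fits used edgeR 4.0.16 (TMM, filterByExpr, quasi-likelihood, 15392 genes including all 10 members, Benjamini-Hochberg adjustment, threshold 0.05), with DESeq2 1.42.0 as an alternative, under R 4.3.3. Fold differences are on the TMM scale and CPM on the total of orthologous exons. Dispersion came from maximum likelihood fits and a LOESS trend (span 0.75) over genes with at least 6 CPM in any animal. Correlations used a pseudocount of 0.5 CPM. Other tools were Python 3.11.15, numpy 2.4.6, pandas 2.3.3, scipy 1.17.1, statsmodels 0.14.6 and matplotlib 3.10.9. The steps were tested on simulated data, where 146 of 200 genes changed 2-fold were found in the year fit with 6 false calls. The closest libraries, 4X0212 and 95A014, differed beyond counting noise (chi-square 116 per degree of freedom), so that none is a copy of another, while that each comes from a different animal rests on the labels and was not tested.

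The members and lists were chosen with earlier results of these data known. Named are all members, per list up to 4 genes called with year and up to 2 with RIN by smallest adjusted p, PDGFB, JAG1, DLL4, MYOCD, SRF and HEYL, and the 5 genes closest to MYH11 and to RGS5. A gene named by this rule is not reported here. DES, SRF, VWF, POSTN, CD68, WT1, HEY2, PDGFRA, NPPA, PLIN4 and MYH7 are named as the most abundant of a list, and genes at 0 as such. FLNA, PDGFA, CLDN5 and UPK3B matched no identifier. Alternatives were other library sizes, filters, covariates, pseudocount, span and sets of animals.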

Additional observations from a re-analysis of the deposited data

How the results depend on the processing

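For members with year, 2 were called with DESeq2, 0 without 537 and Little_R, 0 in Yerkes animals alone and 0 without the libraries over 45% mitochondrial counts (a setting chosen after seeing the data), and between 0 and 2 when 1 animal was left out. Shares of all genes called with DESeq2 and without 537 and Little_R are not given here, so these member counts are not read as a result on the members as a set. Genes of the other pathway lists called with year (8 in the fit of all animals) were 5 under the total of the gene counts, 1 in Yerkes animals, 5 without the high mitochondrial libraries and between 5 and 9 when 1 animal was left out, fewest without 537 or 549. All genes higher with year numbered 803 under the total of the gene counts, 3144 without a filter (median of all genes 0.14), 230 in Yerkes animals and 798 without the high mitochondrial libraries. Those lower numbered 1459 under the total of the gene counts, 18 in Yerkes animals, 464 without the high mitochondrial libraries and between 441 (without 4x0519) and 841 when 1 animal was left out. With RIN, DESeq2 called 3 pathway genes, 87 genes higher and 97 lower. Without the high mitochondrial libraries 1 pathway gene, 49 genes higher and 124 lower were called. Without a filter 1 gene was higher and 1 lower, with the total on orthologous exons 2 were lower, with a 6 CPM filter 1 was lower, and 15 were lower within the earlier year. Leaving out 1 animal gave 0 to 1 pathway genes, 0 to 43 genes higher and 0 to 109 lower, with the most without 558 and, next, 8 and 20 without 495. Year differences turned sign with the total on orthologous exons for TAGLN (0.032) and LMOD1 (0.020). They turned sign with the total of the gene counts and without the high mitochondrial libraries, in that order, for NOTCH3 (-0.083, -0.13), MCAM (-0.12, -0.16), DLL4 (-0.11, -0.14), HEYL (-0.096, -0.11) and PDGFB (-0.21, -0.13), and in the latter setting also for JAG1 (-0.0030) and MYOCD (0.017). Leaving out 1 animal gave -0.41 to 0.16 for MYH11, -0.18 to 0.059 for TAGLN, -0.17 to 0.12 for LMOD1 and -0.039 to 0.087 for PDGFB. Pairs of members called (30 over all animals) were 7 within the earlier year, 11 in the normalized matrix and 19 without the high mitochondrial libraries. The r of RGS5 and PDGFRB was -0.0512 in the matrix, that of MYH11 and PDGFRB -0.0387 within the earlier year and -0.0772 without the high mitochondrial libraries, and that of MYH11 and CNN1 -0.0899 within the earlier year. Members called with the mitochondrial share were 0 under the total of the gene counts, which includes the mitochondrial counts. They were 3 without 537 and Little_R, 0 within the earlier year and 0 without the high mitochondrial libraries, where r was -0.067 for MCAM. That r was -0.192 for SMTN under the total of the gene counts, and within the earlier year -0.359 for PDGFRB and -0.344 for MCAM. Dispersion changed sign for SMTN, to 0.15 without 537 and Little_R, 0.60 within the earlier year and 0.24 without the high mitochondrial libraries, and for PDGFRB, to -0.0029 under the total of the gene counts and -0.20 within the earlier year. The cause of these changes was not tested. Of the year differences of named genes and the RIN slopes of RGS5 and SMTN with 1 animal left out, 1393 kept their sign and side of the threshold, 144 lost a call, 2 gained one and 19 changed sign. Under the other settings these numbers were 325, 67, 2 and 14. Counting error is small beside these spreads, since no member had fewer than 133 counts in any animal.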
